A study of Mus musculus with 9 samples.

Results

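The 10 mesothelial genes described here, of 56748 genes in the table of counts, were Msln, Upk3b, Upk1b, Krt8, Krt18, Krt19, Muc16, Wt1, Lrrn4 and Gpm6a. They were found in the table by their gene symbols, and all 10 passed the filter of 0.5 CPM (counts of a gene per 1000000 counts of the library) in at least 1 library. Levels of genes given in CPM were also adjusted by the TMM factor of the library, which the filter did not use. They were chosen by their place as mesothelium markers and by their counts in these same 9 libraries, with the differences between phases already known. Their levels, their shared pattern and their fold changes are therefore a description. Counts of them past a test's threshold are given beside the share of all genes past it, nothing is read from those counts, and no p is given for a single member. RNA sequencing was performed on epididymal adipose tissue of male C57BL/6J mice of the WT genotype, which were 8 weeks old when feeding began. Pre were mice given HFD for 8 weeks. WL1 and WL2 were mice given the same 8 weeks of HFD and then SD for 1 and 2 weeks, so that every group carried the history of HFD and no group was fed SD throughout. The mice of WL1 and WL2 were therefore older than those of Pre. No sequenced group stayed on HFD through those weeks, so the change of diet cannot be told apart from age and time. Each phase had 3 libraries, with 18184813 to 22729072 counts at Pre, 17798709 to 21694533 at WL1 and 16434450 to 17804883 at WL2.

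The mesothelium is the single layer of flattened cells that covers the organs and walls of the body cavities, including the surface of visceral fat depots such as the epididymal one. Mesothelial cells come from the mesoderm, yet they carry microvilli, a surface coat and keratin filaments as epithelial cells do, and they make a lubricating fluid. In bulk tissue, fewer mesothelial cells and less RNA per mesothelial cell cannot be told apart.

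The 10 mesothelial genes varied widely between libraries of 1 phase, and they varied together, Krt18 the least closely. Pre replicate 1 and WL1 replicate 2 were low in mesothelial genes and WL2 replicate 3 was high. The summed level of the 10 genes was 46.6, 450 and 401 CPM in Pre replicates 1, 2 and 3, 272, 52.8 and 140 CPM in WL1 replicates 1, 2 and 3, and 294, 619 and 841 CPM in WL2 replicates 1, 2 and 3. The highest library thus held 18.04 times the level of the lowest, and the range at Pre overlapped both others, while the highest WL1 library was below the lowest WL2 library. Pre replicate 1 was among the 2 lowest libraries for 10 of the 10 genes and WL1 replicate 2 for 9. WL2 replicate 3 was the highest for 10, and WL2 replicate 2 was among the 2 highest for 9.

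**Figure D1:**
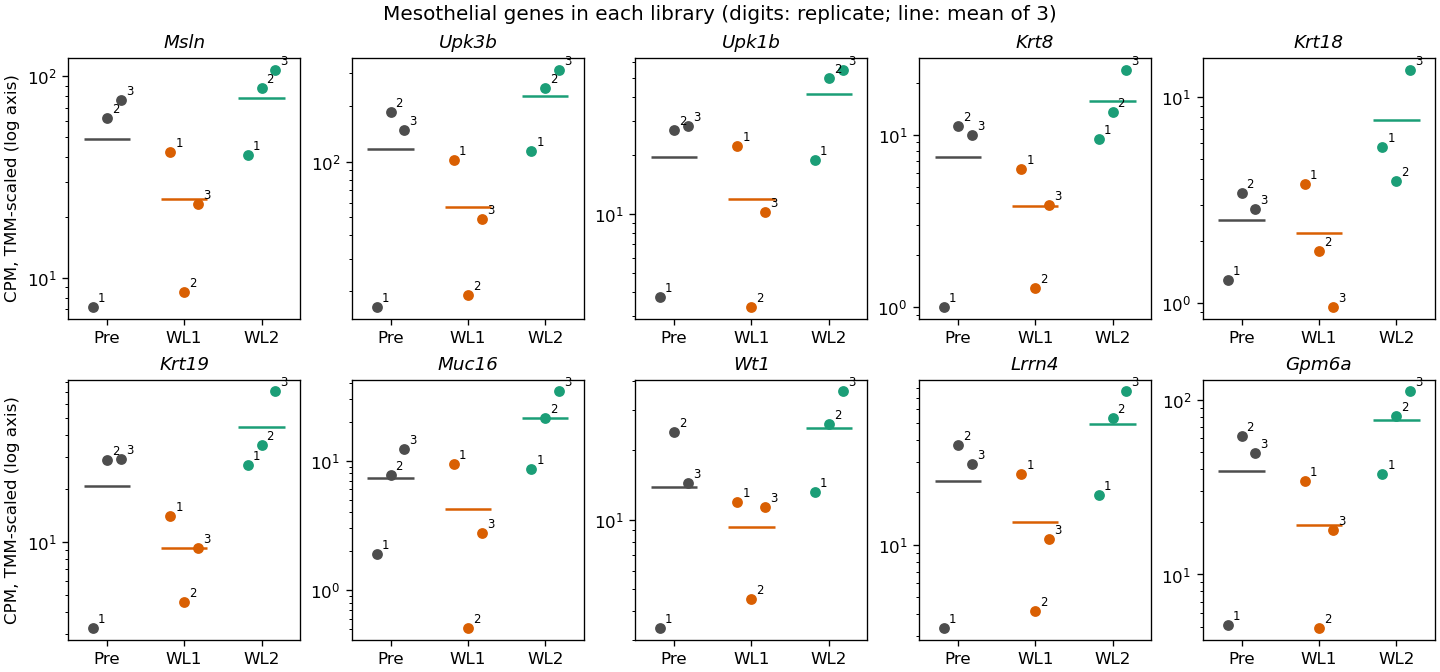
Level of each mesothelial gene in CPM (log axis, a separate scale for each gene) in the 3 libraries of Pre, WL1 and WL2. Points are libraries, numbered by replicate, and lines are means of 3. Pre replicate 1 lies among the 2 lowest points for all 10 genes and WL2 replicate 3 is the highest point for all 10.

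The surface proteins are taken first. Upk3b encodes a uroplakin, one of the membrane proteins that coat the urothelium and that mesothelial cells also make. On the FPKM scale of the authors (fragments scaled by gene length and library total), which allows levels of different genes to be set side by side, Upk3b was the most abundant of the 10 with a mean of 35.4 over the 9 libraries. In the authors' table it lies on chromosome 5 at 136067350 to 136075341 on the plus strand (ENSMUSG00000042985). Its level was 16.5, 186 and 149 CPM in Pre replicates 1 to 3, 102, 19.1 and 49.1 CPM in WL1 replicates 1 to 3, and 114, 248 and 312 CPM in WL2 replicates 1 to 3. All WL2 libraries were above all WL1 libraries, and the Pre libraries reached from below WL1 into the range of WL2. Counting error was small against this spread: the lowest library, Pre replicate 1, rested on 279 counts with an exact Poisson 95% interval of 247 to 314. Such intervals cover counting error only.

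Msln encodes mesothelin, a membrane-anchored surface glycoprotein named after the mesothelium. It had a mean of 15.5 FPKM and lies on chromosome 17 at 25967587 to 25973352 on the minus strand (ENSMUSG00000063011). Its level was 7.19, 62.3 and 76.6 CPM at Pre, 42.4, 8.54 and 23.3 CPM at WL1 and 40.6, 87.5 and 108 CPM at WL2, each in the order of the replicates. The low libraries were again Pre replicate 1 and WL1 replicate 2, and the WL2 range overlapped both others. Muc16 encodes the large transmembrane mucin that carries the CA125 antigen and binds mesothelin. On the FPKM scale it was the least abundant of the 10, with a mean of 0.392, although its length of 26350 bases in the table gave it a mean of 10.98 CPM. Its level was 1.89, 7.77 and 12.3 CPM at Pre, 9.39, 0.505 and 2.75 CPM at WL1 and 8.59, 21.3 and 34.4 CPM at WL2. WL1 replicate 2 held 11 counts of Muc16 (95% interval 5.49 to 19.7), the fewest of any gene and library among the 10, and Muc16 had the widest range, 68.1-fold over the 9 libraries.

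Upk1b encodes a tetraspanin partner of the uroplakins and had a mean of 10.9 FPKM. Its level was 3.77, 27.0 and 28.1 CPM at Pre, 22.4, 3.35 and 10.3 CPM at WL1 and 19.0, 49.7 and 54.8 CPM at WL2. Lrrn4 encodes a neuronal leucine-rich repeat membrane protein and had a mean of 7.28 FPKM. Its level was 3.30, 37.5 and 29.2 CPM at Pre, 25.3, 4.18 and 10.7 CPM at WL1 and 19.4, 53.1 and 76.0 CPM at WL2. For both genes WL2 replicate 1 lay below WL1 replicate 1, so the 2 phases of SD overlapped. Gpm6a, which encodes a four-pass membrane glycoprotein best known from neurons, had a mean of 13.1 FPKM. Its level was 5.13, 62.2 and 49.2 CPM at Pre, 34.3, 4.91 and 17.98 CPM at WL1 and 37.5, 80.6 and 111 CPM at WL2. All WL2 libraries of Gpm6a were above all WL1 libraries.

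The bases just upstream of Upk3b, Lrrn4 and Gpm6a are shown because these were the 3 genes with the TEAD core, the letters bound by the TEAD partners of YAP, in this window. Krt8, whose library profile was as close to those of the other genes, had no TEAD core in its promoter. No promoter was matched for Msln, Upk1b, Krt19 or Wt1. RefSeq promoters on GRCm38.p6 were matched for 6 of the 10 genes, with 7 promoters in all, and each sequence is the 250 bases before the start, 5′ to 3′ on the strand of the gene. Capitals mark GGAATG or its reverse complement CATTCC.
Upk3b (chr5:136038246-136038495, plus strand): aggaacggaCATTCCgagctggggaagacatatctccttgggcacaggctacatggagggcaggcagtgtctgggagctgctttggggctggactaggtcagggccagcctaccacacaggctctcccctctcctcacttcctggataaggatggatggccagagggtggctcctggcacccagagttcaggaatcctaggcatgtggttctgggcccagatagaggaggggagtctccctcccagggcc
Lrrn4 (chr2:132880863-132881112, minus strand): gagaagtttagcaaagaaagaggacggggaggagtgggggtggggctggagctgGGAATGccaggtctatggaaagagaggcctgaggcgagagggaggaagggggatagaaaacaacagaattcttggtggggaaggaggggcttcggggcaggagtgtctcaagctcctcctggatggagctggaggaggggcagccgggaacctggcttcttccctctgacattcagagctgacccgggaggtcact
Gpm6a (chr8:54779184-54779433, plus strand): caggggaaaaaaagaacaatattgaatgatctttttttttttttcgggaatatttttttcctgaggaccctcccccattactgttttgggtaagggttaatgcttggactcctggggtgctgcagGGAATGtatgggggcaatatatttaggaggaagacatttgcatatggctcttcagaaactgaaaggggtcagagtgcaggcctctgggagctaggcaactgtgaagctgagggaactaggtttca

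Over both strands, GGAATG was found in 3 of the 7 promoters and in 12.6% of 32851 promoters of the same length. The other letters searched were the GC box GGGCGG, found in 0 of the 7 and 32.7% of all, the TATA box TATAAA, found in 1 (the second promoter of Gpm6a) and 12.4% of all, and GCGGGGGCG, which WT1 and EGR1 bind, found in 0 and 2.57% of all. These matches describe letters in the window and no binding was measured.

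Of the genes inside the cell, Wt1 encodes the zinc finger transcription factor that marks the mesothelium from the embryo on. It had a mean of 2.44 FPKM and lies on chromosome 2 at 104956874 to 105003961 on the plus strand (ENSMUSG00000016458). Its level was 3.36, 24.0 and 14.4 CPM at Pre, 11.9, 4.50 and 11.3 CPM at WL1 and 13.1, 26.1 and 36.1 CPM at WL2. All WL2 libraries were above all WL1 libraries, and the range of 10.8-fold over the 9 libraries was the narrowest of the 10 genes. The sources used here do not give the strand setting of the counting. In the authors' table no other gene overlapped Wt1, the antisense gene Wt1os (0.0918 to 2.78 CPM) included. On the opposite strand, Gm36026 overlapped Krt8 with 6 counts over the 9 libraries, and 7SK overlapped Muc16 with 0 counts.

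Keratins 8, 18 and 19 form the filaments of simple epithelia, in which keratin 8 pairs with keratin 18 or 19. Krt19 had a mean of 12.6 FPKM. Its level was 3.24, 29.1 and 29.5 CPM at Pre, 14.1, 4.59 and 9.22 CPM at WL1 and 27.3, 35.2 and 70.9 CPM at WL2. Krt8 had a mean of 4.29 FPKM. Its level was 1.00, 11.3 and 10.01 CPM at Pre, 6.29, 1.28 and 3.93 CPM at WL1 and 9.47, 13.5 and 23.7 CPM at WL2. Both keratins had the low libraries seen in the surface proteins, with all WL2 libraries above all WL1 libraries. Krt18 had a mean of 2.71 FPKM and another order. Its level was 1.30, 3.41 and 2.86 CPM at Pre, 3.80, 1.79 and 0.955 CPM at WL1 and 5.75, 3.91 and 13.5 CPM at WL2. The lowest library of Krt18 was WL1 replicate 3, with 17 counts (95% interval 9.90 to 27.2) against 39 (27.7 to 53.3) in WL1 replicate 2, and its WL2 libraries were above those of both other phases. The margin to WL1 was within counting error, with 69 counts (53.7 to 87.3) in WL2 replicate 2 and 70 (54.6 to 88.4) in WL1 replicate 1.

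Krt8 and Krt18 are shown together because they are neighbours on chromosome 15, with starts 23.7 kb apart and facing away from each other, while their profiles parted. In the authors' table Krt8 lies at 101905133 to 101912917 on the minus strand (ENSMUSG00000049382) and Krt18 at 101936615 to 101940462 on the plus strand (ENSMUSG00000023043). Their 250 upstream bases (RefSeq, GRCm38.p6) held none of the letters searched and are given in lower case.
Krt8 (chr15:102004343-102004592, minus strand): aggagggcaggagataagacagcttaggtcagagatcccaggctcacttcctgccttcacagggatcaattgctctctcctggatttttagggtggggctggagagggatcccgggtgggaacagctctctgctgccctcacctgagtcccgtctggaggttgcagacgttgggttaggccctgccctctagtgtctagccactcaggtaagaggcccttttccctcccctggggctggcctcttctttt
Krt18 (chr15:102027966-102028215, plus strand): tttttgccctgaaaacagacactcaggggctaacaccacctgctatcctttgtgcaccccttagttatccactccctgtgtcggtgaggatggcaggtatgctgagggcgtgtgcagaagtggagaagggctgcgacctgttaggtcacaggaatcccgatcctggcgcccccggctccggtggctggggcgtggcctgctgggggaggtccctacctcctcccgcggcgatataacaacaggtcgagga

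On the FPKM scale, the ratio of Krt8 to Krt18 was 0.567, 2.43 and 2.57 at Pre, 1.22, 0.527 and 3.02 at WL1 and 1.21, 2.54 and 1.29 at WL2, in the order of the replicates. The lowest ratios were those of Pre replicate 1, on 17 counts of Krt8 and 22 of Krt18 (95% exact binomial interval of the ratio 0.283 to 1.12), and of WL1 replicate 2, on 28 and 39 counts (0.312 to 0.879). The interval was 1.76 to 5.48 in WL1 replicate 3, the library with the highest ratio. The ratio of Krt8 to Krt19 ranged from 0.265 to 0.424, or 1.60-fold. Reads shared between keratin genes and their pseudogenes could have been split by the counting, and the sources used here do not say how such reads were treated.

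To describe how closely the genes moved together, the log2 CPM of each gene (prior count 4) was centred on its mean over the 9 libraries, and each gene was set against the median of the other 9. The measure was the root mean square difference over the 9 libraries, so that 0 means the same profile. Upk3b differed from the others by 0.144, Lrrn4 by 0.175, Krt8 by 0.176, Upk1b by 0.187, Msln by 0.20 and Gpm6a by 0.20. For each of these 6 genes no other of the 18501 genes compared had a smaller difference from the same median. Krt19 came next with 0.271 (rank 5), followed by Wt1 with 0.467 (rank 22), Muc16 with 0.554 (rank 38) and Krt18 with 0.868 (rank 154). The libraries shared by all genes and their depth enter every one of these differences.

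**Figure D2:**
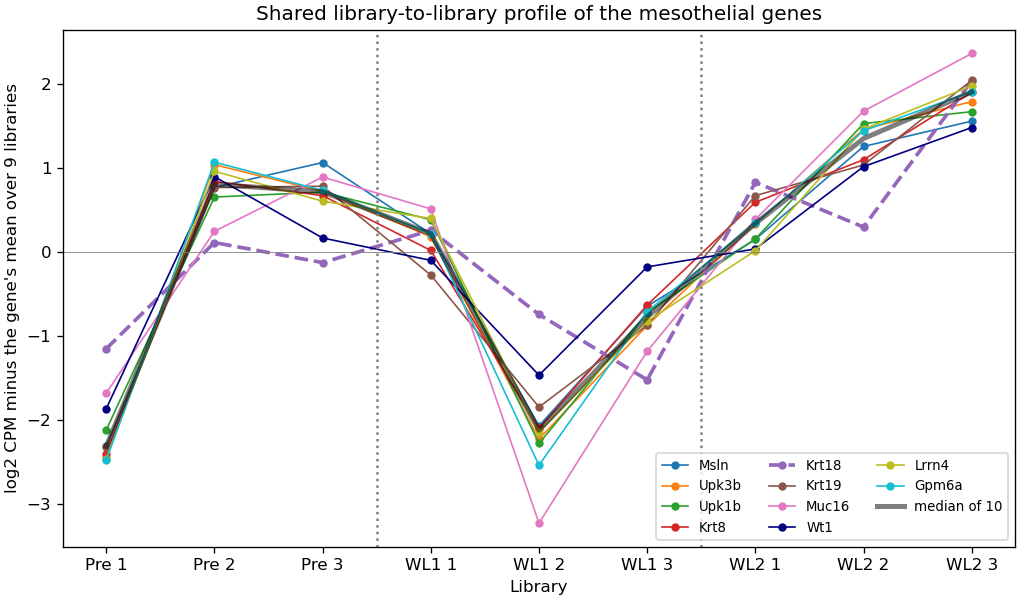
Centred log2 CPM of the 10 mesothelial genes in the 9 libraries, with the median of the 10 as a thick grey line and Krt18 dashed. The thin lines join the values of 1 gene and imply no order of the replicates. The median ran from -2.31 in Pre replicate 1 to 1.91 in WL2 replicate 3.

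The median profile of the 10 genes was -2.31, 0.81 and 0.72 at Pre, 0.22, -2.12 and -0.77 at WL1 and 0.34, 1.35 and 1.91 at WL2 on the centred log2 scale. Krt18 lay 1.17 above the median of the others in Pre replicate 1 and 1.40 above it in WL1 replicate 2, the low libraries, while its difference from that median was -0.73 and -0.85 in Pre replicates 2 and 3. Wt1 lay 0.46 above the median in Pre replicate 1 and 0.68 above it in WL1 replicate 2. Muc16 departed in both directions, by 0.64 in Pre replicate 1 and by -1.13 in WL1 replicate 2, on 11 counts. The pair of Upk3b and Msln kept a ratio between 1.69 and 2.59 on the FPKM scale in all 9 libraries while the level of Upk3b ranged 19.0-fold in CPM, and Gpm6a kept a ratio to Upk3b between 0.282 and 0.402.

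By the same measure, the 8 genes outside the 10 that lay nearest to their median profile, among genes with a mean of at least 1 CPM over the 9 libraries, were Spock2 (0.238), Wnt2b (0.239), Rspo1 (0.248), Spock3 (0.258), Cobl (0.268), Pkhd1l1 (0.286), Cxadr (0.299) and Crb2 (0.308). Spock2 and Spock3 encode testican proteoglycans, Wnt2b a Wnt ligand, Rspo1 an R-spondin that strengthens Wnt signals, Cobl an actin nucleator, Cxadr an adhesion protein of tight junctions and Crb2 a polarity protein. Their levels ran from 5.28 to 116 CPM for Spock2, 1.12 to 24.2 CPM for Wnt2b, 0.826 to 17.3 CPM for Cobl and 1.59 to 27.8 CPM for Cxadr. Spock3 had a mean of 1.37 CPM and no count in 2 libraries. In all, 26 genes outside the 10 with such a mean lay within 0.5, whereas a gene with no variation lay at 1.38. Krt18 was at 0.841 from the median of the 10, and 104 genes outside the 10 with such a mean were nearer to that median. Ranks given below among genes outside the 10 also use genes with such a mean.

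The spread between libraries of 1 phase was set against all genes. The SD within phases on the log2 CPM scale was 0.83 for Krt18, 1.03 for Wt1, 1.20 for Krt19 and between 1.28 and 1.47 for the other 7 genes, with a median of 1.32 over the 10, beside a median of 0.27 over all 18510 genes tested. Of 14637 genes with a mean of at least 1 CPM, 299 had an SD of at least that of Krt18, the lowest of the 10. The share of the sum of squares that lay between phases was 32.1% for Msln to 55.7% for Krt18, beside a median of 44.2% over all genes. For each of the 10 genes but Krt18, more of the sum of squares thus lay within the phases than between them.

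**Figure D3:**
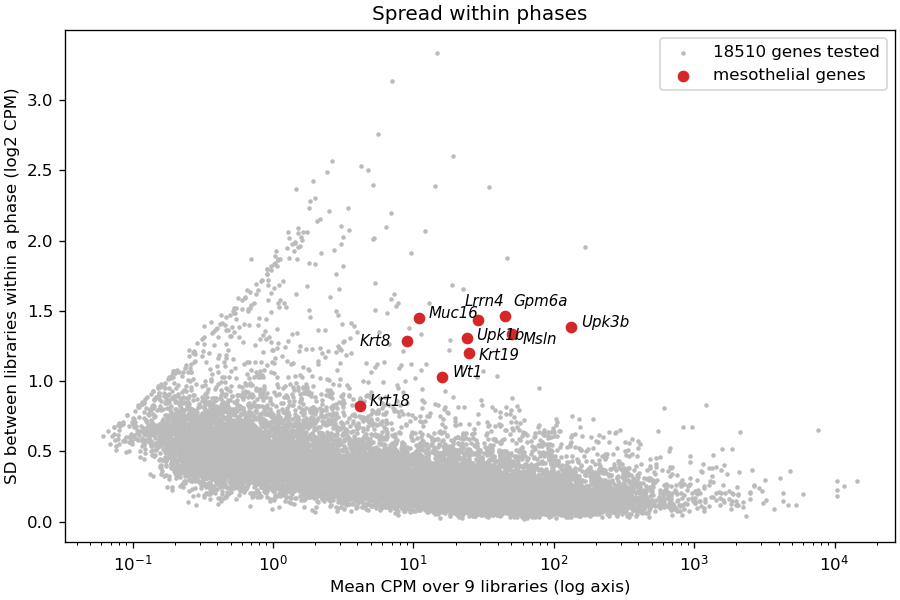
SD between libraries of the same phase on the log2 CPM scale, against the mean CPM over 9 libraries (log axis), for 18510 genes in grey and the 10 mesothelial genes in red. The 10 genes lie between 0.83 and 1.47, above the median of 0.27 over all genes.

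The first comparison was WL1 against Pre, the first week of SD. For 10 of the 10 genes the mean was lower at WL1. The fitted log2 fold change ranged from -1.16 ± 0.68 (SE) for Krt19 and -1.04 ± 0.77 for Upk3b to -0.22 ± 0.58 for Krt18, with a median of -0.90 beside 0.02 over all genes tested. For Msln the means were 24.7 ± 17.0 CPM (SD, n = 3) at WL1 and 48.7 ± 36.6 at Pre. In the quasi-likelihood test of edgeR, adjusted over all genes by Benjamini-Hochberg, 0 of the 10 passed the threshold of 0.05, beside 7.29% of all genes (2.6% higher and 4.69% lower). At an unadjusted p under 0.05 the count was 0 beside 24.3%, by DESeq2 0 beside 14.4%, and by limma on log2(FPKM + 1) 0 beside 7.03%. The libraries of the phases overlapped for 10 of the 10 genes, while 28.7% of all genes had no overlap. The median was -0.46 without WL1 replicate 2, -0.54 without Pre replicate 2, -0.60 without Pre replicate 3, -1.40 without Pre replicate 1 and -1.61 without WL1 replicate 1. The sign of Wt1 changed without Pre replicate 2 (0.03), as did that of Krt18 without WL1 replicate 3 (0.13) and without Pre replicate 2 (0.05).

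The comparison of WL2 against Pre, which shares the Pre libraries with the first, gave a higher mean at WL2 for 10 of the 10 genes. The log2 fold change ranged from 0.69 ± 0.73 (SE) for Msln to 1.54 ± 0.83 for Muc16 and 1.61 ± 0.57 for Krt18, with a median of 1.06 beside 0.01 over all genes. The means of Upk3b were 225 ± 101 CPM (SD, n = 3) at WL2 and 117 ± 89.0 at Pre. By edgeR 0 of the 10 passed the adjusted threshold, beside 10% of all genes (3.35% higher and 6.66% lower), and 1 had an unadjusted p under 0.05 beside 26%. DESeq2 called 1, Krt18, beside 16% of all genes, edgeR without a filter on low counts called 1, Krt18, beside 7.17%, and limma on log2(FPKM + 1) called 0 beside 9.83%. Krt18 was also the 1 gene whose libraries did not overlap, beside 30.9% of all genes. Leaving out Pre replicate 1 lowered the median to 0.56, and leaving out WL2 replicate 3 lowered it to 0.63. No gene changed sign when any 1 library was left out.

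The widest differences were those of WL2 against WL1, the second week of SD, a comparison that shares libraries with both others. The mean was higher at WL2 for 10 of the 10 genes, with log2 fold changes from 1.45 ± 0.61 (SE) for Wt1 to 2.26 ± 0.69 for Krt19 and 2.36 ± 0.87 for Muc16 and a median of 1.94, beside -0.001 over all genes. Means of Upk3b were 225 ± 101 CPM at WL2 and 56.9 ± 42.1 at WL1 (SD, n = 3 each), and those of Gpm6a 76.5 ± 37.2 and 19.1 ± 14.8. By edgeR 0 of the 10 passed the adjusted threshold, beside 3.68% of all genes (1.31% higher and 2.37% lower), while 10 had an unadjusted p under 0.05, beside 21.4%. Without a filter on low counts, 10 of the 10 passed the adjusted threshold in the same test, beside 5.64% of the 29550 genes then tested. DESeq2 called 1 (Krt18) beside 11.9% of all genes, limma on log2(FPKM + 1) called 0 beside 2.9%, and edgeR on WL1 and WL2 alone called 1 (Krt19) beside 5.82%. Libraries did not overlap for 6 of the 10 (Upk3b, Krt8, Krt18, Krt19, Wt1 and Gpm6a), beside 30.3% of all genes. The median was 2.65 without WL1 replicate 1 and 1.56 without WL1 replicate 2 or WL2 replicate 3, and 1 gene, Krt19, passed the adjusted threshold without Pre replicate 1, beside 4.22% of all genes.

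**Figure D4:**
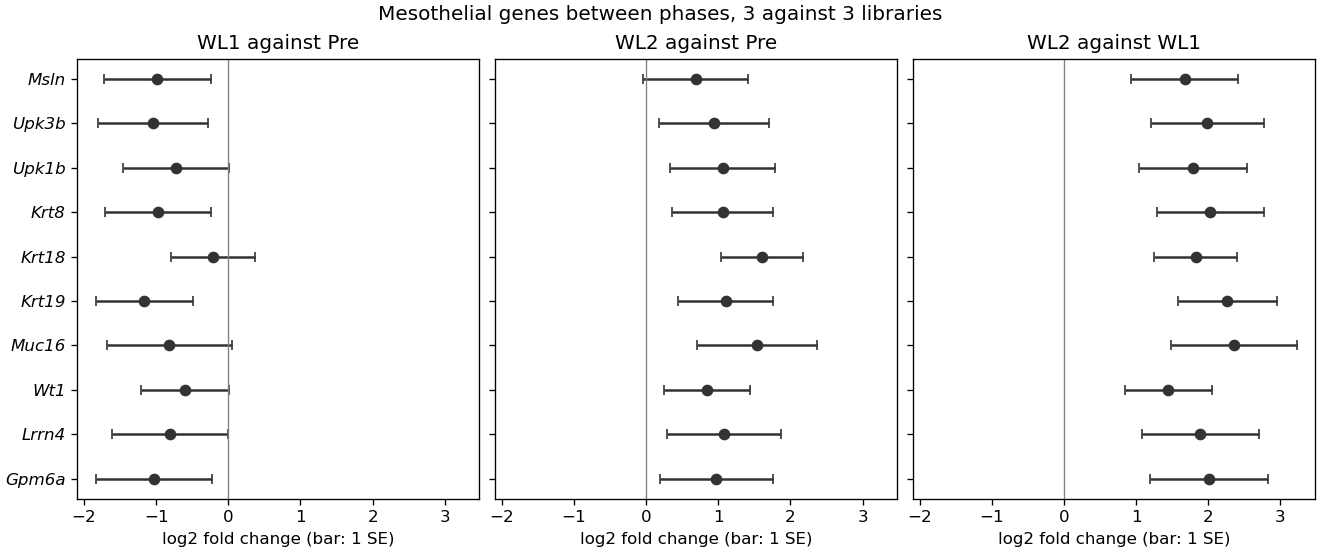
Log2 fold change of each mesothelial gene with its SE, from 1 edgeR fit over the 9 libraries, for WL1 against Pre, WL2 against Pre and WL2 against WL1 (3 against 3 libraries). All 10 points lie below 0 in the first panel and above 0 in the others, and 0 of the 10 passed the adjusted threshold in each.

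A list of 15 other genes known from mesothelium, written from general knowledge, had 14 genes tested. The exception was Calb2, which encodes the calcium-binding protein calretinin: it had 0 counts in all 9 libraries, which allows a level of up to 0.183 CPM in the shallowest. At WL1 against Pre, 0 of the 14 passed the adjusted threshold of edgeR, beside 7.29% of all genes. An unadjusted p under 0.05 was found for 1, beside 24.3%. DESeq2 called 1 (Nkain4), beside 14.4%, and limma called 0, beside 7.03%. At WL2 against Pre 2 rose and 0 fell, beside 3.35% and 6.66% of all genes. An unadjusted p under 0.05 was found there for 3, beside 26%. Nkain4 was called in this comparison by DESeq2 and by edgeR without a filter on low counts. Prg4, which encodes lubricin, the lubricating proteoglycan of joints and serous surfaces, was 5.54, 5.89 and 7.29 CPM at Pre, 7.05, 10.6 and 5.96 CPM at WL1 and 14.5, 13.3 and 17.5 CPM at WL2. All WL2 libraries lay above the others, and the log2 fold change from Pre to WL2 was 1.27 ± 0.23 (SE; edgeR adjusted p = 0.00679, n = 3 against 3). This call was kept in all 18 alternatives, with adjusted p from 1.464e-05 to 0.0334. Cldn15, a claudin of tight junctions, rose by 0.74 ± 0.17 on the log2 scale (edgeR adjusted p = 0.0197), from 70.0, 65.5 and 74.2 CPM at Pre to 101, 121 and 130 CPM at WL2. Its adjusted p by edgeR was 0.0525 and 0.0529 when Pre replicates 1 and 2 were left out in turn, and 0.0760 and 0.0783 when WL2 replicates 2 and 3 were.

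At WL2 against WL1, 2 of the 14 rose and 0 fell, beside 1.31% and 2.37% of all genes. An unadjusted p under 0.05 was found for 6 of the 14, beside 21.4%. Nkain4, which encodes a membrane protein that interacts with the sodium pump, was 9.33, 5.05 and 5.90 CPM at WL1 and 24.7, 27.6 and 40.0 CPM at WL2, a log2 difference of 2.19 ± 0.40 (SE; edgeR adjusted p = 0.0206). At Pre it was 6.43, 21.04 and 16.6 CPM, with Pre replicate 1 low as for the 10 genes. The call was lost when WL1 replicate 2 or 3 was left out (adjusted p by edgeR 0.0759 and 0.0901) or WL2 replicate 2 or 3 (0.0813 and 0.0860), and with the replicate number as a block (0.0507). Prg4 rose by 0.93 ± 0.22 from WL1 to WL2 with an edgeR adjusted p of 0.0496, and this call was kept in 8 of the 18 alternatives. Those that ended it were the replicate block, limma on either FPKM scale and leaving out Pre replicates 1 and 3, WL1 replicates 1 and 3 and each WL2 replicate, with adjusted p by edgeR or limma from 0.0524 to 0.177. The median log2 fold change of the 14 genes was -0.24 from Pre to WL1, 0.57 from Pre to WL2 and 0.45 from WL1 to WL2.

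The list fell apart into genes with and without the library profile of the 10. Rspo1, Pkhd1l1, Krt7 and Bnc1 were at rank 3, 6, 10 and 11 among genes outside the 10, with differences of 0.248 to 0.339, and Nkain4 was at rank 44 with 0.630. Bnc1, which encodes a zinc finger protein of mesothelium and some epithelia, was 0.766, 8.26 and 8.30 CPM at Pre, 8.74, 0.551 and 2.08 CPM at WL1 and 5.75, 16.5 and 19.4 CPM at WL2. Krt7, another simple keratin, was 2.00, 14.6 and 11.2 CPM at Pre, 6.89, 2.30 and 5.39 CPM at WL1 and 10.7, 15.3 and 23.4 CPM at WL2. Both had the low libraries of the 10 genes. The other 9 genes tested were at rank 122 (Ezr) to 12667 (Muc1), among them Cldn15 with an SD within phases of 0.23 and Prg4 with 0.29.

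Genes related to the 10 by family (other uroplakins, keratins, mucins, Lrrn and Gpm6 genes, 19 listed, 11 tested) had 0 calls by edgeR in each comparison, with 0, 2 and 2 at an unadjusted p under 0.05, 0, 1 and 0 by DESeq2 and 0, 1 and 0 by limma, for WL1 against Pre, WL2 against Pre and WL2 against WL1 in turn. The shares of all genes given above for each comparison stand beside these counts and those of the lists below. Upk3bl, the nearest relative of Upk3b, was at most 0.165 CPM. Desmosome and keratin linker genes (12 listed and tested) had 3, 8 and 2 at an unadjusted p under 0.05 in the 3 comparisons in turn. DESeq2, which gave an adjusted p for 9, 10 and 9 of the 12, called 2, 5 and 2. Limma called 2, 3 and 0. By edgeR 2 fell at WL1 against Pre, Pkp1 (log2 fold change -3.76) and Pkp2 (-0.55). At WL2 against Pre, Pkp1 (-6.07) and Plec (-1.13) fell and Pkp4 (0.79) rose, and at WL2 against WL1 Plec (-1.11) fell. Pkp1 was 4.598, 1.267 and 3.09 CPM at Pre, 0.3255, 0 and 0.3372 CPM at WL1 and 0, 0 and 0.1157 CPM at WL2. The sizes of its falls to WL1 (SE 0.88) and to WL2 (SE 1.11) thus rest on few or no reads in those phases. The summed level of the 12 genes ranged from 842 to 1066 CPM over the 9 libraries, with 35.5% to 56.8% of it from Jup. Within the list Ppl, which encodes periplakin, a linker of keratin filaments to the cell border, was 5.01, 7.27 and 12.6 CPM at Pre, 7.81, 2.94 and 4.27 CPM at WL1 and 10.4, 17.4 and 32.2 CPM at WL2. Its difference from the median profile of the 10 was 0.687 (rank 60 among genes outside the 10), with WL1 replicate 2 lowest and WL2 replicate 3 highest. Ppl was named after its values were seen, so its log2 difference of 2.00 ± 0.49 (SE) between WL2 and WL1 is a description. It did not pass the adjusted threshold of edgeR in that comparison. The other genes of the list were at rank 163 (Evpl) to 14599 (Pkp1). The fall of Pkp1 was already known when the list was written.

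Markers of other cells that the sample could hold were summed in the same way. The 12 genes of epididymis epithelium summed to between 0.0562 and 0.553 CPM in every library, and 0 of them passed the filter. Simple epithelium genes (6 of 15 tested) summed to 24.2 to 39.9 CPM with 0 calls by edgeR in each comparison (0, 0 and 3 at an unadjusted p under 0.05, 0 each by DESeq2 and limma), with 84.0% to 95.6% of the sum from Spint2. Among them Epcam and Cdh1 were at most 0.661 and 0.275 CPM. Cldn3 was 0.236, 2.81 and 1.98 CPM at Pre, 2.98, 0.321 and 2.25 CPM at WL1 and 1.09, 2.66 and 2.72 CPM at WL2. Cldn3 and Esrp2 were at rank 74 and 72 among genes outside the 10, with differences of 0.729 and 0.723 from their median profile. The other simple epithelium genes tested were at rank 189 (Epcam) to 13276 (Ehf). Testis genes (4 of 10 tested) summed to 6.57 to 11.4 CPM, with 0 calls by edgeR in each comparison (1, 1 and 0 at an unadjusted p under 0.05, 0, 1 and 0 by DESeq2 and 0, 1 and 0 by limma). The lowest library of each of these 3 sums was WL1 replicate 3. For simple epithelium that order rested on Spint2. Without Spint2 the other 14 genes summed to 1.47 to 6.06 CPM at Pre, 2.52 to 5.15 at WL1 and 3.23 to 4.98 at WL2. The lowest library of that sum was thus at Pre. DESeq2 gave an adjusted p for 2, 5 and 2 of the 6 simple epithelium genes in the 3 comparisons in turn. For the testis genes it did so for 2 of the 4 in each.

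Adipocyte genes (12) summed to 38920, 31690 and 30150 CPM at Pre, 26180, 29530 and 22010 CPM at WL1 and 35980, 34600 and 33070 CPM at WL2, so that Pre replicate 1, lowest in the 10 genes, was highest in adipocyte genes. Fibroblast and progenitor genes (12) summed to 10460 to 13230 CPM at Pre, 10750 to 11190 at WL1 and 14300 to 18430 at WL2, of which Gsn made up 66.0% to 85.8%. Without Gsn the other 11 summed to 2673 to 3556 CPM at Pre, 2042 to 2785 at WL1 and 2270 to 2935 at WL2, ranges that overlapped. The median log2 fold change of the 12 from Pre to WL2 was 0.06, with 6 higher and 6 lower. Macrophage genes (12) were lowest in Pre replicate 1 (1850 CPM) and highest in WL1 replicate 3 (6317 CPM). Endothelial genes (10) summed to 1538 to 2865 CPM with 0 calls by edgeR in each comparison (0, 1 and 0 at an unadjusted p under 0.05, 0 each by DESeq2 and limma). B cell genes (8) were 250 CPM in Pre replicate 2 and 7.31 to 26.0 CPM in the other 8 libraries, with 0 calls by edgeR (4, 0 and 0 at an unadjusted p under 0.05, 0 each by DESeq2 and limma). DESeq2 gave an adjusted p for only 1 of these 8 genes in each comparison. These lists moved over 1.76-fold for fibroblasts, 1.77-fold for adipocytes, 1.86-fold for endothelium, 3.42-fold for macrophages and 34.2-fold for B cells, the last through Pre replicate 2. Their part in the values of the 10 genes was not tested.

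**Figure D5:**
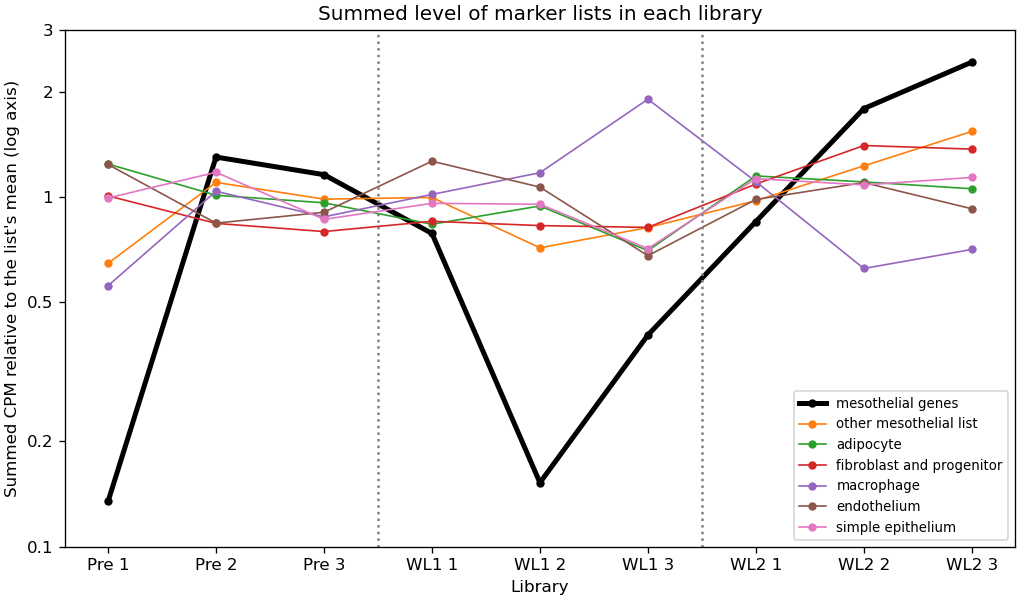
Summed CPM of marker lists in each library relative to the list's mean over 9 libraries (log axis). Lines join the values of 1 list and imply no order of the replicates. The 10 mesothelial genes, in black, ranged 18.04-fold, and no other list drawn ranged over 3.42-fold as summed. The simple epithelium line is mostly Spint2. Without its largest gene, simple epithelium ranged 4.11-fold, macrophage genes 3.50-fold and the 10 mesothelial genes 17.5-fold. Among lists not drawn, B cell genes ranged 34.2-fold, and epididymis genes 9.85-fold at no more than 0.553 CPM.

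Of these lists, Lep (-0.83), Cidec (-0.84), Plin1 (-0.52) and Retn (-1.86) of the adipocyte genes, Col15a1 (-1.28) of the fibroblast genes and Acta2 (-1.28) of 12 genes of mesenchymal transition fell at WL1 against Pre, given as log2 fold changes, and Trem2 (1.83) of the macrophage genes rose. At WL2 against Pre, Lep (-2.03), Cidec (-0.67), Col15a1 (-1.88) and Acta2 (-1.06) fell and Pck1 (1.26), Cfd (1.61), Dcn (0.84) and Gsn (0.76) rose. At WL2 against WL1, Lep (-1.20) and Col15a1 (-0.60) fell and Retn (1.51), Cfd (1.94), Pparg (0.54), Gsn (0.75) and Twist2 (1.31) rose. Of these and the desmosome calls, 28 in all, 9 were kept in all 18 alternatives and 19 were lost in at least 1. Those kept were Lep in the 3 comparisons, Col15a1 and Acta2 at WL1 and at WL2 against Pre, Retn at WL1 against Pre and Pkp1 at WL2 against Pre. The least stable were Plin1 at WL1 against Pre, kept in 6 of 18, Trem2, kept in 8, and Pparg, kept in 9.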

How the data were processed

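RNA of epididymal adipose tissue was sequenced in 9 libraries, 3 each at Pre, WL1 and WL2. Phase and replicate number follow the titles in the sample labels. The authors deposited unnormalized counts for each gene, and FPKM for each gene, scaled by gene length and library total. The submitters' processing notes name GRCm38, mm10, HISAT2, HISAT, TopHat2 and CASAVA, without roles. The sources used here give no counting program, strand setting or annotation. GENCODE M21 (GRCm38) held 52073 of the gene identifiers, of which 50383 had the same span but 1472 the same coordinates, and 0 of the 10 members did, so that no build is named for coordinates from the authors' table. Columns that matched no sample numbered 0.

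The 18510 genes that reached 0.5 CPM in 1 or more libraries were tested by edgeR 4.0.16 in R 4.3.3, with TMM factors of 0.933 to 1.07, glmQLFit and glmQLFTest in 1 model over the 9 libraries without covariates, Benjamini-Hochberg adjustment and a threshold of 0.05. The alternatives were no filter, a filter in 3 libraries, DESeq2 1.42.0, RLE and upper-quartile factors, a block for the replicate number, limma 3.58.1 with a pseudocount of 1 or 0.1 added to FPKM before log2, the compared phases fitted alone, and each library left out in turn. The members, the lists (written from general knowledge), the tests and the rule for named genes were chosen with earlier results of these data known. That rule names all members, all genes of a list past the threshold in a comparison if 5 or fewer and otherwise the 3 with the largest change, and the 8 genes nearest in profile. Wt1os, Upk3bl, Calb2, Epcam, Cdh1, Cldn3, Esrp2, Ehf, Bnc1, Krt7, Ezr, Muc1, Ppl, Jup and Spint2 were named after their values were seen. Scripts were tested on simulated data. Promoters came from RefSeq on GRCm38.p6. Within a phase, the chi-square per degree of freedom of 2 libraries was 9.88 to 53.8, beyond sampling noise, so all were kept as separate samples. Replicates are described as mice of 1 phase, and p-values set the difference between phases against the spread between these libraries. With 16434450 or more counts per library, values under 1 CPM rest on few reads.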

Additional observations from a re-analysis of the deposited data

How the results depend on the processing

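The median log2 fold change of the 10 genes kept its sign under all 18 alternatives in each comparison. Leaving out each library in turn, it ranged from -1.61 to -0.46 at WL1 against Pre, 0.56 to 1.48 at WL2 against Pre and 1.56 to 2.65 at WL2 against WL1. The genes past the threshold ranged from 512 to 1500, 743 to 1688 and 37 to 1351, the members from 0 to 0, 0 to 0 and 0 to 1, and the other mesothelial genes from 0 to 1, 1 to 2 and 0 to 3. Of single members, Wt1 (0.03) and Krt18 changed sign at WL1 against Pre as given above (Krt18 to 0.13 and 0.05). With no filter, the counts were 1 other mesothelial gene at WL1 against Pre, 1 member at WL2 against Pre, and 1668 genes, 10 members and 5 other mesothelial genes at WL2 against WL1. With DESeq2 they were 2344 genes and 1 other mesothelial gene, 1 member, and 1935 genes and 1 member. With the compared phases alone, WL2 against WL1 gave 1053 genes, 1 member and 4 other mesothelial genes, and limma gave 1 other mesothelial gene on either FPKM scale. The replicate numbers did not pair the libraries (same-number correlations of deviations from -0.43 to 0.16, different-number -0.28 to 0.34), and not every library correlated best with its own number. With the replicate number as a block, 844 genes passed at WL1 against Pre and 330 genes and 0 other mesothelial genes at WL2 against WL1, and it changed no other count by over 1.5 times. The causes of these changes were not tested. Depth limits Muc16, Krt8 and Krt18 in Pre replicate 1 and WL1 replicate 2, where they rest on 11 to 39 counts.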
